A study of Mus musculus with 6 samples.

Results

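The genes described here are markers and regulators of the progenitors of the cerebral cortex, chosen by name: radial glia genes, Notch pathway genes and genes of intermediate progenitors. Of 30 such genes, 26 have a probe on the array whose only gene symbol is theirs, and 25 of these, with 26 probes, have a measured value, out of 5374 named genes with a value in all. Fabp7, Id4, Rfx4 and Hopx have no such probe, and the probe of Dll3 holds no value on any array. Each of the 26 probes had at least 2 values in each dye orientation and was tested, and 21 had a value on all 6 arrays. The samples were neocortex RNA from 6 biological replicates of C57BL/6 mice at embryonic day 14 that carried a munc18-1 null mutation, the loss of a protein needed for vesicle release, so that their neurons are synaptically silent. Each mutant was hybridised on an array of 2 colours against 1 pool of neocortex RNA from 6 wild-type C57BL/6 replicates of the same day, with the mutant in cy3 on replicates 1, 2 and 3 and in cy5 on replicates 4, 5 and 6. The pool is the only control, so that the spread between wild-type animals is not in any error given here.

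Radial glia are the stem cells of the embryonic cortex. They line the ventricle, send a long process to the surface, and are held in the progenitor state by transcription factors such as Pax6 and Sox2 and by Notch signalling, in which the ligand Dll1 on one cell activates the Notch receptor on its neighbour. The cut receptor joins the DNA-binding protein RBPJ and switches on the repressors Hes1 and Hes5, which keep the proneural factors Neurog1 and Neurog2 low. Daughter cells that escape this restraint become intermediate progenitors, marked by Eomes, and divide to form neurons.

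The sign of the deposited ratios is not stated, and for arrays with swapped dyes it decides every direction. Values are printed as deposited, with log base 2 assumed. The first reading takes the mutant as numerator on every array; in the second reading replicates 1 to 3 are turned, which makes the mutant estimate equal to the dye term of the first. The arrays had from 4396 to 5678 values each and standard deviations from 0.35 on replicate 2 to 1.09 on replicate 3. Replicates 3 and 4 stood apart. Across all probes they correlated with each other (r = 0.59) in spite of their opposite dyes, and each of them correlated negatively with replicates 1, 2 and 5 (r from -0.365 to -0.19). The lowest correlation between arrays of one dye orientation was -0.26, for replicates 4 and 5. Estimates are therefore also given without replicates 3 and 4. Ratios carry no level, so that the presence of the tissue's defining markers could not be checked. In RNA from whole tissue, fewer progenitors and less RNA per progenitor cannot be told apart.

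Promoter letters are shown for 3 members, since RBPJ is the route by which Notch reaches DNA. Hes5 is a direct Notch target, and Emx2 and Tnc are the genes with a probe that kept 1 sign on all 6 arrays. Capitals mark TGGGAA, the core of the RBPJ motif, or its reverse complement TTCCCA, in the 250 bases before the gene start (RefSeq).
Hes5 (GRCm38.p6, chr4:154960673-154960922, plus strand): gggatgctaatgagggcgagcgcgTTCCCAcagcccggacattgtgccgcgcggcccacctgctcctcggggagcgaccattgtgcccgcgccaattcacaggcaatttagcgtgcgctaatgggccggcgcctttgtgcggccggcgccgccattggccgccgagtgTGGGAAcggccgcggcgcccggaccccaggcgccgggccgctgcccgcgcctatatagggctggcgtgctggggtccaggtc
Emx2 (GRCm38.p6, chr19:59458440-59458689, plus strand): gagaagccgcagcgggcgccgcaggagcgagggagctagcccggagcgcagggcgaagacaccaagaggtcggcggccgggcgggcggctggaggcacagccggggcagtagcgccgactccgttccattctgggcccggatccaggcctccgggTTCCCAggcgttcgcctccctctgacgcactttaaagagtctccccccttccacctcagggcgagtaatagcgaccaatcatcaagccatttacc
Tnc (GRCm38.p6, chr4:64047016-64047265, minus strand): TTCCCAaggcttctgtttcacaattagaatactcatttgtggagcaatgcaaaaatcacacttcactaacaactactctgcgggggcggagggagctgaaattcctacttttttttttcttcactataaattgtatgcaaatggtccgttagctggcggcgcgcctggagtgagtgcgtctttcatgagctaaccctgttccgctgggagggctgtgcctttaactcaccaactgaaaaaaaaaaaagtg

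The Hes5 window holds 2 matches and the Emx2 and Tnc windows 1 each. Of the 25 genes, 21 are in the promoter table, with 27 start sites, and 6 of the 21 hold the core in at least 1 window (Emx2, Hes5, Lhx2, Prom1, Ptn and Tnc). By start site this is 29.6% of the members' windows and 21.6% of all 32851. The longer form GTGGGAA, an extension of the core, is in 1 window each of Hes5 and Tnc, or 7.41% of the members' windows, and in 5.42% of all windows. The Tnc window with the longer form belongs to another start site and is not the one printed. Such matches are descriptions of the letters and not evidence of binding.

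No progenitor gene passed the test between mutants and pool. In limma, with the dye orientation as a term and Benjamini-Hochberg adjustment over all 4958 probes tested, 0 of 26 member probes had an adjusted p under 0.05 in either reading, where the background was 0 of 4958 probes (0%) in each. The smallest adjusted p among members was 0.921 in the first reading and 0.972 in the second. At an unadjusted p under 0.05 there were 2 member probes in the first reading, of Eomes and Tnc, against 1.77% of all probes, and 1 in the second, of Lhx2, against 4.6%. Without replicates 3 and 4 the same count was 6 of 25 (Dll1, Emx1, Eomes, Mfng, Neurog1 and Neurog2) in the first reading, where the background had grown to 13.6%, and 8 of 25 in the second, where it was 23.4%. Those 8 were Pax6, Sox2, Sox9, Hes5 and Eomes, with estimates from -0.32 to -0.22, and Notch1, Mfng and Neurog1, with estimates from 0.21 to 0.27. With array weights it was 7 of 26 in the first reading, against 12.1% of all probes, and 13 of 26 in the second, against 27.3%. Again 0 members passed after adjustment, with a smallest limma adjusted p of 0.3 in the first reading and 0.147 in the second without replicates 3 and 4, and of 0.28 and 0.0776 with array weights. Estimates above 0 were found for 16 of 26 member probes in the first reading, against 43.3% of all probes, and for 13 of 26 in the second, against 53%.

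**Figure D1:**
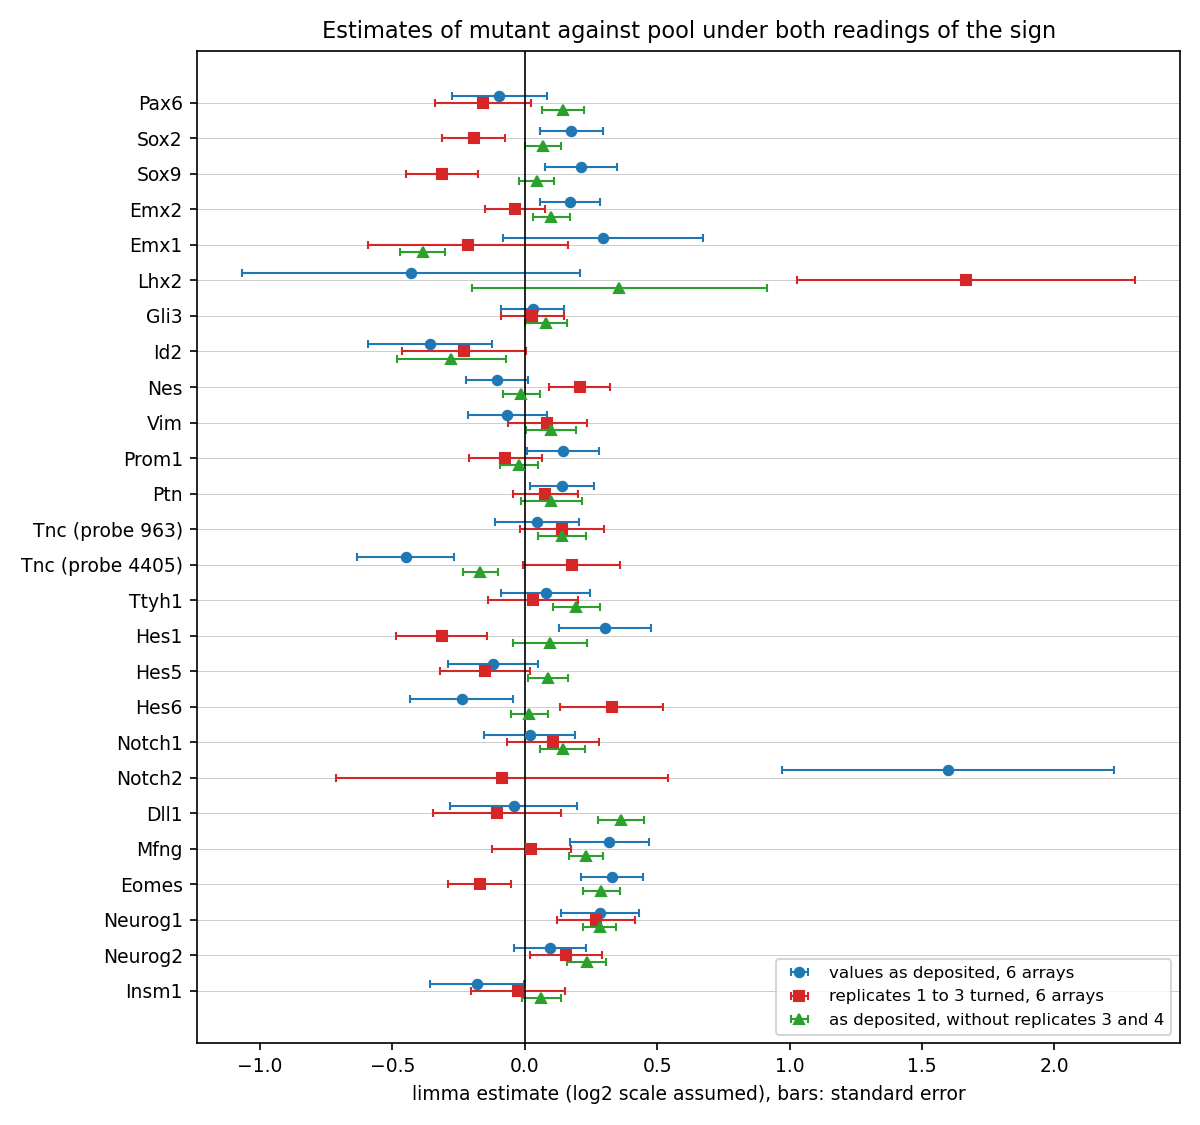
Limma estimates for the 26 member probes on the log2 scale (base assumed), with bars for the standard error. Circles take the values as deposited on 6 arrays, squares turn replicates 1 to 3, and triangles take the values as deposited without replicates 3 and 4. The circle and square of Sox2, Sox9, Hes1, Hes6, Nes and Eomes lie on opposite sides of 0, and the widest bars belong to Lhx2 and Notch2.

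Of the members, 3 kept 1 sign wherever they were measured. Emx2 and Neurog1 lay above 0 on every array with a value, as did 1.9% of all probes tested, and 1 probe of Tnc lay below 0 on all 6 arrays, as did 0.827% of all probes. With replicates 1 to 3 turned, 0 of 26 member probes had 1 sign on every array with a value, against 6.9% of all probes. The values of the 2 dye orientations did not overlap for 5 of 26 member probes (Lhx2, Neurog1, Nes, Sox2 and Sox9), against 15.9% of all probes.

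Radial glia, Notch and intermediate progenitor genes had small medians. In the first reading the median estimate was 0.05 for the 14 radial glia genes, 0.02 for the 7 Notch pathway genes and 0.19 for the 4 intermediate progenitor genes, against -0.03 for all 4414 named genes tested. In the second reading the medians were -0.0045, -0.09 and 0.07, against 0.02 for all named genes. Without replicates 3 and 4 the first reading gave 0.07, 0.12 and 0.26, against 0.05 for all named genes. The second reading then gave -0.026, 0.035 and -0.035. The radial glia genes fall into 2 lists, which lay apart. On all 6 arrays the 8 regulators (Pax6, Sox2, Sox9, Emx1, Emx2, Lhx2, Gli3 and Id2) had medians of 0.10 and -0.18 in the first and second reading. The 6 genes of structure and signals (Nes, Vim, Prom1, Ptn, Tnc and Ttyh1) had 0.0066 and 0.08. In the second reading 6 of the 8 and 1 of the 6 were below 0, as were 2073 of all 4414 named genes. The median of the intermediate progenitor genes was 0.20, 0.16, -0.50, 0.13, 0.22 and 0.15 on replicates 1 to 6. Replicate 3, with 3 of the 4 genes measured, was thus the only array on which it lay below 0. The median of all named genes was 0.05, 0.04, -0.24, -0.13, 0.04 and -0.0041 on replicates 1 to 6, so that it was lowest on replicate 3 too. The radial glia median was 0.06, 0.05, -0.27, 0.15, -0.04 and -0.02, and the Notch pathway median 0.17, -0.0022, 0.09, -0.22, 0.31 and 0.20. The standard deviation of these array medians, 0.28 for intermediate progenitor, 0.14 for radial glia and 0.19 for Notch pathway genes, was larger than each median estimate in the first reading. It is a spread between single arrays and not the error of an estimate over 6 arrays. For the intermediate progenitor genes it includes the -0.50 of replicate 3. All these medians are descriptions with no test.

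**Figure D2:**
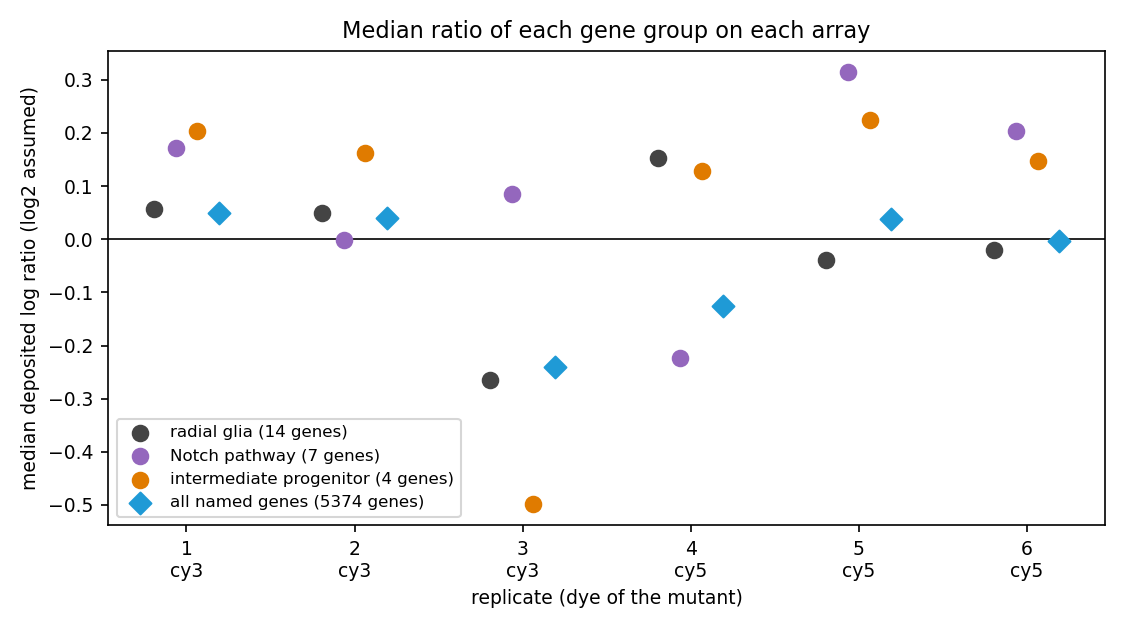
Median deposited log ratio of each gene group (vertical axis, log2 assumed) on each replicate (horizontal axis, with the dye of the mutant). Circles are the 3 progenitor groups and diamonds all named genes; the intermediate progenitor median is at -0.50 on replicate 3 and between 0.13 and 0.22 on the other 5 arrays.

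Among the transcription factors of radial glia, Sox2 and Sox9 had alike ratios. Sox2, which maintains the stem cell state, lay at 0.28, 0.30 and 0.53 on replicates 1 to 3 and at 0.26, -0.08 and -0.23 on replicates 4 to 6. Sox9, which acts in the same cells, lay at 0.43, 0.31 and 0.84 and at 0.25, -0.29 and -0.27. Both were above 0 on replicates 1 to 4 and below 0 on replicates 5 and 6, and every cy3 value exceeded every cy5 value. Their estimates were 0.18 ± 0.12 and 0.21 ± 0.14 in the first reading and -0.19 ± 0.12 and -0.31 ± 0.14 in the second (SE, n = 6). Without replicates 3 and 4 the first reading gave 0.07 and 0.05 and the second -0.22 and -0.32 (limma adjusted p = 0.171 and 0.147).

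Pax6, the factor that defines cortical radial glia, had other signs on replicates 3 and 4. It lay at 0.42, 0.44 and -0.68 with the mutant in cy3 and at -0.47, 0.00019 and -0.29 with the mutant in cy5. Replicates 1 and 2 were high and replicates 3 and 4 low, and the dye orientations overlapped. The estimate was -0.10 ± 0.18 (SE, n = 6), or 0.14 ± 0.08 (SE, n = 4) without replicates 3 and 4, and -0.16 in the second reading. The second reading without replicates 3 and 4 was -0.29 (limma adjusted p = 0.158), beside the values of Sox2 and Sox9 just given.

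The empty spiracles homologs Emx1 and Emx2, factors of the cortical primordium, stood at opposite ends of the spread between arrays. Emx2 lay at 0.15, 0.04, 0.43, 0.19, 0.04 and 0.18 on replicates 1 to 6. Its standard deviation of 0.14 was at percentile 2.15 of the 3763 probes with 6 values, and its estimate was 0.17 ± 0.11 (SE, n = 6; limma adjusted p = 0.921), or 0.10 without replicates 3 and 4. The second reading gave -0.037, or 0.0066 without these replicates. Emx1 lay at -0.18, -0.24, 1.94, 1.37, -0.39 and -0.74. It was above 0 on replicates 3 and 4 alone, and its standard deviation of 1.09 was at percentile 96.1. Its estimate of 0.29 ± 0.38 (SE, n = 6) therefore turned to -0.39 ± 0.09 (SE, n = 4; limma adjusted p = 0.3) without these replicates, and was -0.063 without replicate 3 and -0.027 without replicate 4. The second reading gave -0.21, or -0.18 without both.

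Lhx2, a LIM homeobox factor that specifies cortical identity, had the widest spread of all members, at percentile 99.9. It lay at -0.26, -1.22 and -4.81 with the mutant in cy3 and at 0.81, -0.15 and 3.06 with the mutant in cy5. All 3 cy3 values were below every cy5 value, so that the readings give -0.43 ± 0.64 and 1.67 ± 0.64 (SE, n = 6; limma adjusted p = 0.921 and 0.972). The values on replicates 3 and 6 were larger in size than those of 99.6% of the probes on the array, and without replicates 3 and 4 the readings gave 0.36 and 1.09.

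Id2, an inhibitor of basic helix-loop-helix factors, was below 0 on 5 of 6 arrays. It lay at 0.69, -0.17, -0.90, -0.14, -0.40 and -1.23 on replicates 1 to 6, with replicate 1 as the exception. The estimate was -0.36 ± 0.23 (SE, n = 6), or -0.28 without replicates 3 and 4, -0.56 without replicate 1, and -0.23 in the second reading, which became -0.54 without replicates 3 and 4. Gli3, a transducer of hedgehog signals that patterns the cortex, stayed close to 0 at 0.26, 0.0078, -0.27, 0.12, 0.10 and -0.05, with 0.03 ± 0.12 (SE, n = 6) in each reading, or 0.080 and -0.055 without replicates 3 and 4.

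The filament genes Nes and Vim had their lowest ratios on replicate 3. Nes, the intermediate filament nestin, lay at -0.16, -0.21 and -0.57 with the mutant in cy3 and at -0.01, 0.24 and 0.07 with the mutant in cy5, without overlap. Vim, the filament vimentin, lay at 0.07, 0.13, -0.66, -0.13, 0.31 and -0.11 on replicates 1 to 6, so that replicate 3 was its lowest array and the orientations overlapped. The estimates of Nes and Vim were -0.11 ± 0.12 and -0.07 ± 0.15 in the first reading and 0.21 ± 0.12 and 0.09 ± 0.15 in the second (SE, n = 6). Without replicates 3 and 4 Nes stood at -0.013 and 0.17 and Vim at 0.10 and -0.0038.

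Prom1, Ttyh1 and Ptn, genes of membrane and secreted proteins of radial glia, each had values on both sides of 0. Prom1, the apical membrane protein prominin, lay at -0.03, 0.08, 0.60, 0.35, -0.15 and 0.01, highest on replicates 3 and 4, with an estimate of 0.14 ± 0.14 (SE, n = 6), or -0.02 without them. Ttyh1, a chloride channel family member, had no value on replicate 3 and lay at 0.04, 0.06, -0.35, 0.53 and 0.15 on the other 5 arrays, giving 0.08 ± 0.17 (SE, n = 5). Replicate 4 was its only value below 0. Ptn, the secreted growth factor pleiotrophin, lay at -0.11, 0.19, 0.10, 0.34, -0.09 and 0.41, above 0 on 4 of 6 arrays, with 0.14 ± 0.12 (SE, n = 6).

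Tnc, the matrix protein tenascin C, had 2 probes that disagreed. Probe 4405 lay at -0.25, -0.37, -1.26, -0.77, -0.00073 and -0.05 on replicates 1 to 6. All values were below 0, but on replicates 5 and 6 only just. Probe 963, without a value on replicate 3, lay at -0.05, -0.14, -0.20, 0.18 and 0.58 on replicates 1, 2, 4, 5 and 6, above 0 on the arrays where the other probe was near 0. The estimates were -0.45 ± 0.18 (SE, n = 6; limma adjusted p = 0.921) for probe 4405 and 0.05 ± 0.16 (SE, n = 5) for probe 963. They stood at -0.17 and 0.14 without replicates 3 and 4, and averaged before the fit the gene stood at -0.30.

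**Figure D3:**
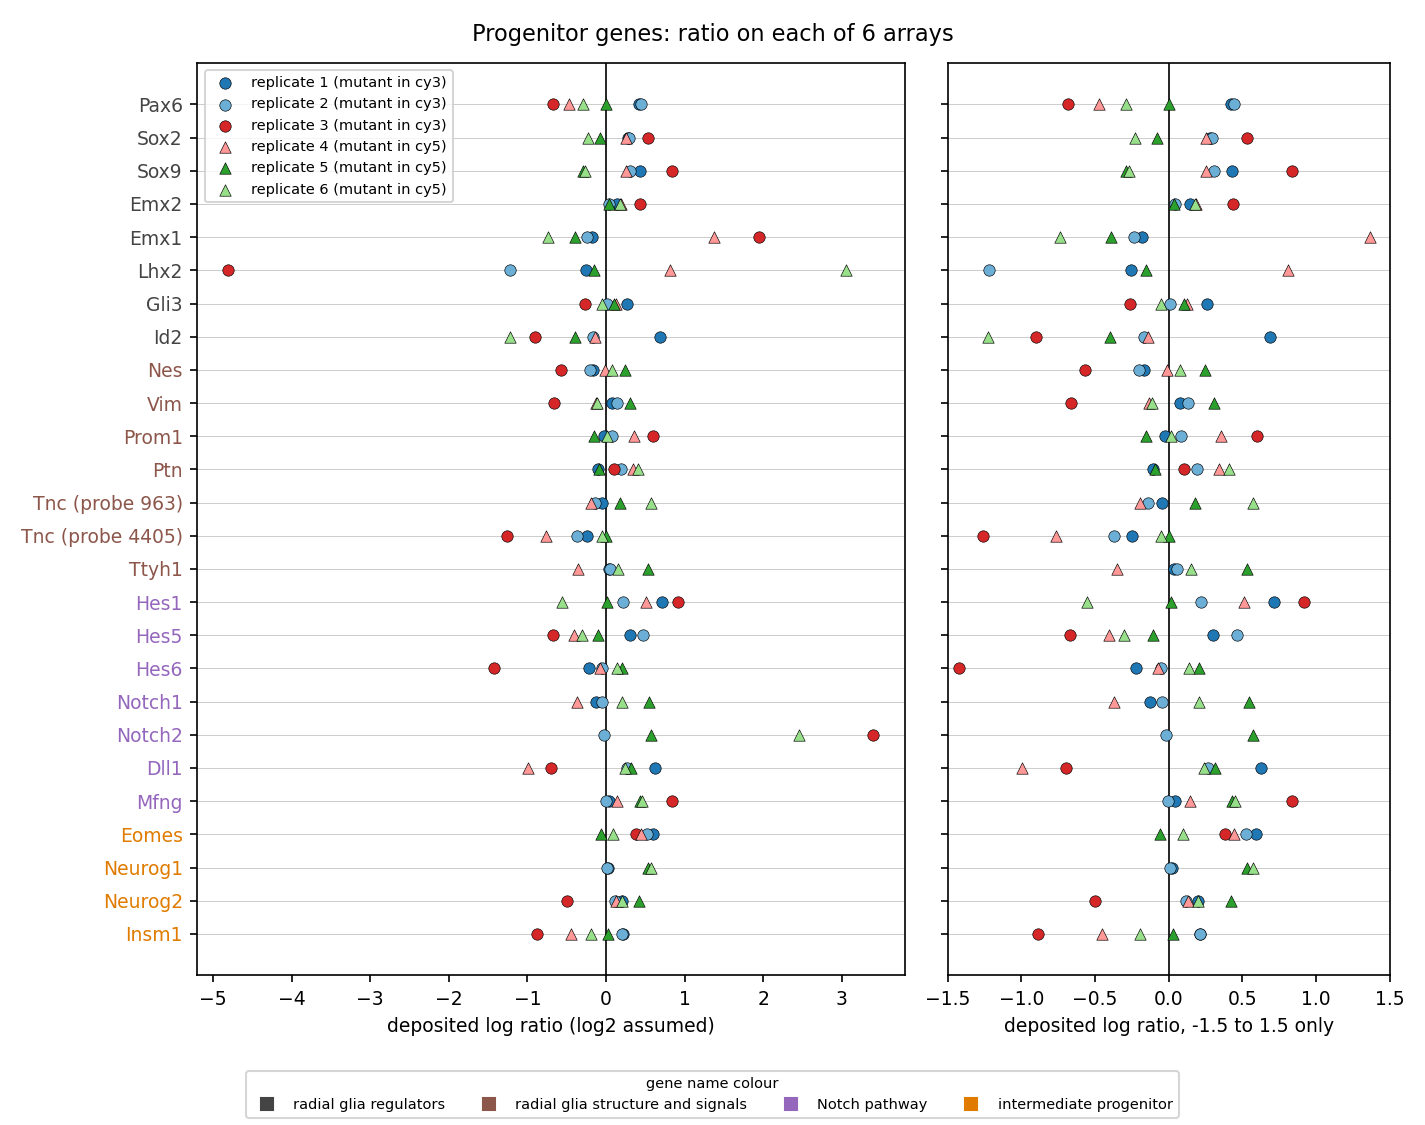
Deposited log ratio (horizontal axis, log2 assumed) of each member probe on each array, over the full range at left and enlarged at right. Circles are arrays with the mutant in cy3, triangles those with the mutant in cy5, and point colours pair replicates 1 and 2, 3 and 4, and 5 and 6. Lhx2 runs from -4.81 to 3.06 and Emx2 from 0.04 to 0.43.

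The receptors of the Notch pathway were measured in part. Notch1, the main receptor of cortical radial glia, lay at -0.13 and -0.05 on replicates 1 and 2 and at -0.37, 0.55 and 0.20 on replicates 4 to 6. These values overlapped between orientations and gave 0.02 ± 0.17 (SE, n = 5), or 0.14 without replicates 3 and 4. The second reading gave 0.11, or 0.23 without these replicates. Notch2 had the highest estimate of all members, 1.6 ± 0.63 (SE, n = 4; limma adjusted p = 0.921), from 4 arrays that did not agree in size. It lay at -0.02 and 3.39 on replicates 2 and 3 and at 0.57 and 2.45 on replicates 5 and 6. The high values are those of replicates 3 and 6, and without any of the 4 arrays too few values were left for the fit. The estimate was -0.09 ± 0.63 (SE, n = 4) in the second reading.

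The ligand Dll1 followed replicates 3 and 4. It lay at 0.62, 0.27, -0.70, -0.995, 0.31 and 0.24 on replicates 1 to 6, above 0 on all arrays but these. Its estimate of -0.04 ± 0.24 (SE, n = 6) became 0.36 ± 0.09 (SE, n = 4; limma adjusted p = 0.3) without them, 0.15 without replicate 3 and 0.17 without replicate 4, and was -0.11 in the second reading, or -0.084 without both. Mfng, the glycosyltransferase manic fringe that tunes the response of Notch to its ligands, lay at 0.04, -0.0022, 0.84, 0.15, 0.43 and 0.45. It was above 0 on every array but replicate 2, where it lay just below, and its estimate was 0.32 ± 0.15 (SE, n = 6; limma adjusted p = 0.921), or 0.23 without replicates 3 and 4. The second reading gave 0.025, which became 0.21 (limma adjusted p = 0.168) once these replicates were dropped, close to the first.

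The Hes repressors had different patterns from one another. Hes1 lay at 0.71, 0.22 and 0.92 with the mutant in cy3 and at 0.51, 0.01 and -0.56 with the mutant in cy5. It was above 0 on 5 of 6 arrays, and the readings gave 0.30 ± 0.17 and -0.31 ± 0.17 (SE, n = 6). The first became 0.10 without replicates 3 and 4, and 0.17 without replicate 4, and the second -0.37 without both. Hes5, whose promoter is shown above, lay at 0.30, 0.46 and -0.67 and at -0.40, -0.10 and -0.31. Its signs were those of Pax6 except on replicate 5, and it stood at -0.12 ± 0.17 (SE, n = 6), or 0.09 without replicates 3 and 4. The second reading gave -0.15, or -0.29 without these replicates. Hes6, which opposes Hes1 and marks cells on the way to neurons, lay at -0.22, -0.05 and -1.43 and at -0.07, 0.20 and 0.14. Replicate 3 was far below the other arrays, and the estimate was -0.24 ± 0.19 (SE, n = 6), or 0.02 without replicates 3 and 4, and 0.33 ± 0.19 in the second reading, or 0.15 with these arrays dropped.

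Eomes had the smallest unadjusted p of all member probes in the first reading. Eomes, the T-box factor of intermediate progenitors, lay at 0.60, 0.53 and 0.38 on replicates 1 to 3 and at 0.44, -0.06 and 0.09 on replicates 4 to 6. Unlike most members it was similar on replicates 1 to 4, which carry both dye orientations, and near 0 on replicates 5 and 6. The estimate was 0.33 ± 0.12 (SE, n = 6; unadjusted p = 0.0265, limma adjusted p = 0.921), above 0 on 5 of 6 arrays. Without replicates 3 and 4 it was 0.29 ± 0.07 (SE, n = 4; limma adjusted p = 0.3), and in the second reading -0.17 ± 0.12 (SE, n = 6), or -0.27 without these replicates (limma adjusted p = 0.152).

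The proneural factors Neurog1 and Neurog2 had their highest values on replicate 6 and replicate 5. Neurog1, with values on 4 arrays, lay at 0.02 and 0.0068 on replicates 1 and 2 and at 0.53 and 0.57 on replicates 5 and 6, so that the orientations did not overlap. The readings gave nearly the same estimate, 0.28 ± 0.15 and 0.27 ± 0.15 (SE, n = 4), since 1 orientation was near 0. The difference from Eomes was not tested. Neurog2 lay at 0.20, 0.12, -0.50, 0.13, 0.42 and 0.20 on replicates 1 to 6. It was above 0 on 5 of 6 arrays, all but replicate 3, and stood at 0.09 ± 0.13 (SE, n = 6), or 0.23 ± 0.07 (SE, n = 4; limma adjusted p = 0.318) without replicates 3 and 4, and 0.16 in the second reading, or 0.077 with these arrays dropped. Insm1, a zinc finger factor that promotes the formation of basal progenitors, lay at 0.21, 0.21, -0.88, -0.45, 0.03 and -0.20. It was lowest on replicates 3 and 4, with -0.18 ± 0.18 (SE, n = 6), or 0.06 without them. The second reading gave -0.026, or -0.15 without them.

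Member signs agreed most often between replicates 1 and 2 and between replicates 3 and 4. Replicates 1 and 2 gave the same sign for 21 of 25 member probes (84.0%) and replicates 3 and 4 for 18 of 21 (85.7%). Replicates 5 and 6 did so for 17 of 26 (65.4%). All probes gave 71.1%, 78.6% and 64.2% for these pairs. This pairing was not tested. Across the other 12 combinations of arrays the members' share ran from 33.3% for replicates 4 and 5 to 64.0% for replicates 1 and 5, and that of all probes from 34.3% to 50.6%. Of 21 member probes with values on replicates 1 to 4, Dll1, Hes5, Insm1, Pax6 and Vim were above 0 on the first pair and below 0 on the second, as were 33.1% of all probes. Emx1 alone was the opposite, as were 9.45%. Emx2, Eomes, Hes1, Sox2 and Sox9 were above 0 on all 4, as were 7.2%, and Hes6, Nes and 1 probe of Tnc were below 0 on all 4, as were 8.76%. What replicates 3 and 4 share is not given in the labels, and its part in these values was not tested. Over the 21 member probes with 6 values the median standard deviation between arrays was 0.43, close to the 0.42 of all 3763 such probes.

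**Figure D4:**
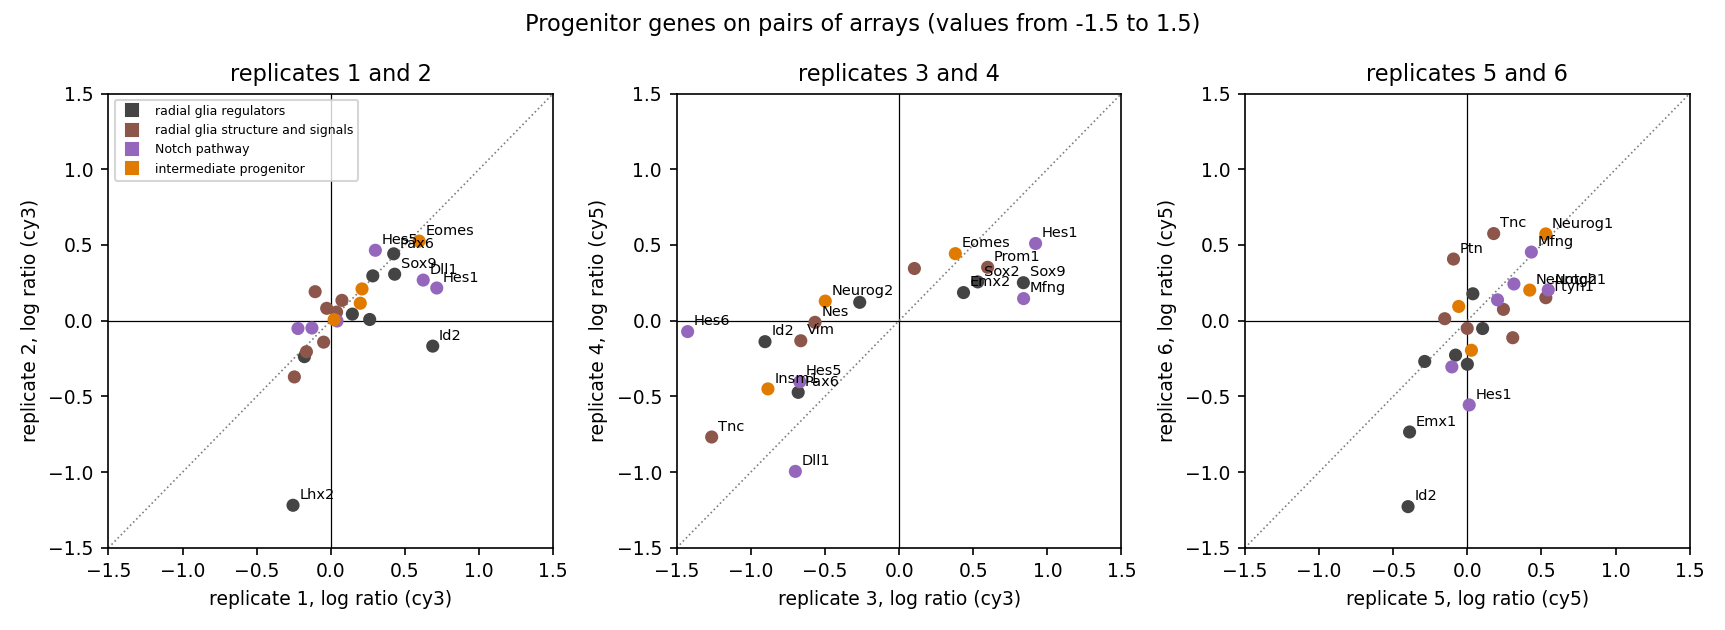
Deposited log ratios (log2 assumed) of the member probes on replicate 1 against 2, 3 against 4, and 5 against 6, coloured by gene group, with the diagonal dotted. Values beyond the axes are Emx1 (1.94 and 1.37) and Lhx2 (-4.81 and 0.81) in the middle panel, and Lhx2 (-0.15 and 3.06) and Notch2 (0.57 and 2.45) in the right panel. On replicates 3 and 4 most members lie at the upper right or lower left.

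Other genes of the Notch pathway gave no call either. Of 52 listed genes 26 were tested, with 16 above and 10 below 0 and a median of 0.09 in the first reading, and 21 above and 5 below 0 with a median of 0.11 in the second. Of all 4414 named genes tested, 1904 were above 0 in the first reading and 2341 in the second. In limma 0 passed in either reading, with 0 at an unadjusted p under 0.05 in the first and 1 in the second. The receptor Notch3 lay at -0.05, -0.01, 0.63, -0.09, 0.30 and 0.96 on replicates 1 to 6, an estimate of 0.29 ± 0.17 (SE, n = 6). The ligand Jag2, at -0.07, 0.85, 0.40 and 0.42 on replicates 1, 3, 5 and 6, had 0.40 ± 0.21 (SE, n = 4). Heyl, a repressor related to the Hes genes, had only values above 0, from 0.06 to 0.61, with an estimate of 0.24 ± 0.12 (SE, n = 6), which became 0.14 once replicates 3 and 4 were dropped. On the other side, the corepressor gene Ctbp1 stood at -0.24, Kat2b, an acetyltransferase, at -0.19 and Dtx3, of the Deltex family, at -0.17. Of these 3, Ctbp1 and Kat2b turned to 0.07 and 0.06 without replicates 3 and 4, and Dtx3 kept its sign at -0.07. In the second reading Notch3, Jag2 and Heyl stood at 0.099, 0.0096 and -0.0066, and Ctbp1, Kat2b and Dtx3 at 0.23, 0.11 and -0.014.

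The estimates of further progenitor genes were spread evenly about 0, although single arrays were not even. Of 40 listed genes 26 were tested, with 14 above and 12 below 0 and a median of 0.03 in the first reading, and with 12 above 0 in the second. On replicates 1 to 6, 19 of 26, 20 of 27, 12 of 23, 9 of 24, 15 of 28 and 12 of 28 genes had a value above 0. Of all named genes these counts were 2604 of 4625, 2649 of 4615, 1643 of 3960, 1579 of 3926, 2796 of 5034 and 2494 of 5033. In limma 0 passed in either reading. At an unadjusted p under 0.05 there was 1 probe in each reading, against 1.77% and 4.6% of all probes. In the first reading it was that of Msi1. The RNA-binding protein gene Msi1 lay at 0.28, 0.30, 0.48, 0.70, 0.46 and -0.14 on replicates 1 to 6, an estimate of 0.34 ± 0.14 (SE, n = 6; limma adjusted p = 0.921). Sox3, a close relative of Sox2, had only values above 0, from 0.05 to 1.03, and an estimate of 0.33 ± 0.15 (SE, n = 6), which became 0.21 once replicates 3 and 4 were dropped. Hmga2, a chromatin protein of young progenitors, stood at 0.44 ± 0.23 (SE, n = 6), with 1.78 on replicate 3 and 0.11 without replicates 3 and 4. Sfrp1, a secreted Wnt modulator, Cdkn1c, a cell cycle inhibitor, and Glul, glutamine synthetase, stood at -0.34, -0.24 and -0.24. Without replicates 3 and 4 Sfrp1 stood at 0.02 and Cdkn1c at 0.07, and Glul has no value on those arrays. In the second reading Msi1, Sox3 and Hmga2 stood at -0.0063, -0.19 and -0.31, and Sfrp1, Cdkn1c and Glul at 0.33, 0.21 and 0.044.

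Markers of other cells varied between the same arrays, and their part in the progenitor values was not tested. Of 17 postmitotic neuron genes tested, 15 had an estimate below 0 in the first reading and 6 in the second. Of all 4414 named genes tested, 2510 and 2073 did. For the postmitotic neuron genes the values were as follows. Their median was 0.02 in the first reading without replicates 3 and 4. On replicates 1 to 6 the median over those measured was -0.00061, 0.14, -0.95, -0.23, 0.06 and -0.09. On replicate 3, 2 of 16 of these genes were above 0, against 1643 of 3960 named genes. Elavl3 and Stmn3, both neuronal, stood at -0.42 and -0.26, or -0.12 and -0.20 with replicates 3 and 4 dropped. Cell cycle genes had medians of 0.32, 0.11, -0.01, -0.21, 0.01 and -0.14 on replicates 1 to 6, with 18 of 20 above 0 on replicate 1 and 6 of 20 on replicate 4. Of all named genes, 2604 of 4625 were above 0 on replicate 1 and 1579 of 3926 on replicate 4. Of the 20 cell cycle genes, 11 had an estimate above 0 in the first reading and 4 in the second. The counts over all 4414 named genes tested were 1904 and 2341. Mcm6, of the replication helicase, stood at 0.22 and in the second reading at 0.053. Top2a, the topoisomerase of dividing cells, lay at 0.89, 0.52 and 0.60 with the mutant in cy3 and at 0.11, -0.30 and -0.51 with the mutant in cy5, without overlap. Its estimate was 0.22 in the first reading and -0.45 in the second (limma adjusted p = 0.972). Interneuron and ganglionic eminence genes had medians from -0.43 on replicate 1, where 0 of 11 lay above 0, to 0.48 on replicate 3, with Dlx2 at -0.37 and Six3 at 0.49.

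Meninges and vessel genes had medians from -0.19 on replicate 1 to 0.21 on replicate 6, with Dcn, the matrix proteoglycan decorin, at -1.28 and Tie1, an endothelial receptor, at 0.32. Dcn lay at -2.08, -1.60, 1.14, -1.5 and -1.82 on replicates 1, 2, 4, 5 and 6. Without replicates 3 and 4 Dcn stood at -1.75 (limma adjusted p = 0.0615) in the first reading and at 0.09 in the second. Choroid plexus and hem genes had medians from -0.20 on replicate 4 to 0.27 on replicate 1, with Msx1 at 0.66 and Foxj1 at 0.24. Erythroid genes ran from -0.13 on replicate 2 to 0.24 on replicate 3, with Slc4a1 at 0.15 and the globin gene Hba-a1 at -0.09. Microglia genes ran from 0.0071 on replicate 5 to 1.24 on replicate 4, where 3 of them were measured, with Tyrobp at -0.36 and C1qb at 1.30, a value that became 0.09 with replicates 3 and 4 dropped. In limma 0 genes of these lists passed in either reading. At an unadjusted p under 0.05 they held 2 genes in the first reading, Dlx2 and Dcn, and 5 in the second, against the backgrounds of 1.77% and 4.6%. The 5 were Dlx5, Col1a1, C1qc, Top2a and Rrm1, of which all but Top2a are named here after their values were seen.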

How the data were processed

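RNA of 6 mutants was measured on arrays of 2 colours against 1 wild-type pool. The deposited table holds values read as log2 ratios made by the authors; how they were scanned, corrected and normalized, their log base and their direction were not stated in any source used. With a natural logarithm every value would change by a constant factor. The array medians were 0.05, 0.04, -0.23, -0.13, 0.04 and -0.0049 on replicates 1 to 6. Of 6856 probes, 6269 carried 1 gene symbol in the platform annotation, 6 several and 581 none; 776 held no value and 3763 a value on every array. The targeted gene is not reported here.

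The 4958 probes with 2 or more values per dye orientation went into a limma model (version 3.58.1, R 4.3.3; lmFit, eBayes), whose intercept is the mutant effect and whose second coefficient is the dye orientation. Two-sided p-values were adjusted by Benjamini-Hochberg and called under 0.05. The labels call the mutants biological replicates. A gene's estimate is the mean over its probes, in list medians only. The fit was tested on simulated ratios with independent noise and changes larger than most member estimates. That test does not cover smaller changes or what replicates 3 and 4 share. The members and lists, and the choice to leave out replicates 3 and 4, were made with earlier results of these data known. All members with a value are named, and of other lists the genes with the smallest p: 3 in each direction for the Notch and progenitor lists, 2 for each list of other cells. Alternatives were the second reading, a model without the dye, arrays centred on their median, arrays also brought to equal median absolute deviation, array weights, robust moderation (statmod 1.5.0), probes measured on all arrays, probes averaged per gene, and replicates left out. The second reading without replicates 3 and 4, and with array weights, was added after seeing the data.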

Additional observations from a re-analysis of the deposited data

Results flagged for a closer look

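On replicate 3 the values of 3 of 26 member probes lay far from those of the other arrays, by the gap to the nearest value relative to the whole range. The 26 probes and 4 group medians were looked at. Chance marks about 1 group in 20 only where all arrays are equally wide, and replicate 3 was the widest. On it 28.8% of all probes lay beyond 1 in size, against 1.58% to 7.53% on the other arrays. The share of all probes marked by this rule was not computed, so the 3 are not a result about the members. Emx2 lay at 0.43 there, against 0.04 to 0.19 on the other 5 arrays. Hes6 lay at -1.43, against -0.22 to 0.20. Neurog2 lay at -0.50, against 0.12 to 0.42. The median over all members was -0.38 on replicate 3, against 0.04 to 0.12, and the intermediate progenitor median -0.50, against 0.13 to 0.22. Replicate 3 also has the largest standard deviation of the arrays, 1.09, and its median over all named genes was -0.24, the lowest of the arrays.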

How the results depend on the processing

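The count of 0 members with a limma adjusted p under 0.05 held under every alternative run, with 0 to 7 at an unadjusted p under 0.05 in the first reading and 0 to 13 in the second. Over all probes the count of 0 became 2 with array weights, 31 with array weights in the second reading, and 1 without replicates 3 and 4. The 4 group medians moved by less than the standard deviation of their array medians under every alternative, although each of the 4 changed sign under some. That limit is wide, since it is a spread between single arrays, replicate 3 among them. Within it the intermediate progenitor median went from 0.19 to -0.049 with array weights in the second reading. No member estimate passed in any setting. Signs changed often, for estimates close to 0 and also for larger ones, such as Lhx2 (-0.43) and Notch2 (1.6) in the first reading. The second reading put Sox2 at -0.19, Sox9 at -0.31, Emx2 at -0.037, Emx1 at -0.21, Lhx2 at 1.67, Nes at 0.21, Vim at 0.086, Prom1 at -0.073, Tnc (probe 4405) at 0.18, Hes1 at -0.31, Hes6 at 0.33, Notch2 at -0.088 and Eomes at -0.17. Without replicates 3 and 4, the values on the other side of 0 were Pax6 at 0.14, Emx1 at -0.39, Lhx2 at 0.36, Vim at 0.10, Prom1 at -0.021, Hes5 at 0.089, Hes6 at 0.017, Dll1 at 0.36 and Insm1 at 0.063. With array weights they were Pax6 at 0.11, Emx1 at -0.32, Lhx2 at 0.44, Vim at 0.065, Hes5 at 0.071, Hes6 at 0.0041, Dll1 at 0.28 and Insm1 at 0.028. With centred and scaled arrays they were Pax6 at 0.053, Emx1 at -0.0071, Vim at 0.040, Hes5 at 0.017 and Dll1 at 0.14. Averaged over its probes, Tnc stood at -0.30, opposite to probe 963. Leaving out each replicate in turn, the estimates that crossed 0 ran as follows: Pax6 from -0.19 to 0.090, Emx1 from -0.063 to 0.50, Lhx2 from -0.89 to 0.25, Gli3 from -0.036 to 0.096, Vim from -0.14 to 0.062, Hes5 from -0.23 to 0.056, Dll1 from -0.18 to 0.17, Insm1 from -0.27 to 0.0019, Tnc (probe 963) from -0.052 to 0.14, Ttyh1 from -0.026 to 0.19 and Notch1 from -0.087 to 0.14. The cause of these changes was not tested. Median centring, complete probes, no dye term and robust moderation turned no member estimate. Notch1, Notch2, Neurog1, Ttyh1 and probe 963 of Tnc, which lack values on some arrays, could not be fitted in every setting. Removal of dim probes was not run, since no intensities were used here, and signal over background is therefore unknown. No paired analysis was possible because the 6 mutants form 1 group against 1 pool.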
